A study of Homo sapiens with 3 samples.

Results

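The junction genes described here are 10 genes whose proteins hold neighbouring epithelial cells together: CDH1, CLDN1, CLDN2, CLDN3, CLDN4, CLDN7, CLDN12, OCLN, TJP1 and F11R. They were chosen by name, and every non-control probe that the array's own annotation assigned to one of them was taken, which gave 14 probes for 10 of the 41749 gene names on the array. RNA came from HCT116, a human colorectal carcinoma line grown in McCOY's 5A medium with serum, and was hybridised to 1-colour Agilent arrays whose probes are 60 bases long. There were 3 arrays, 1 for each group. The negative control (NC) was labelled PRMT1-NC, and the knockdowns KD1 and KD2 were labelled PRMT1-KD1 and PRMT1-KD2. PRMT1 is an arginine methyltransferase that deposits asymmetric dimethylarginine, among others on histone H4. The labels name a pair of siRNAs against PRMT1, delivered with a Lipofectamine reagent, for every array, while the study's text also speaks of short hairpin RNAs, and neither the siRNA behind KD1 or KD2 nor what the NC cells received is spelled out. The SMARCA4 knockdowns of the same study were not analysed here. With 1 array a group there is no replicate, so no p-value is given, and changes are read as folds, as spot errors and against all genes on the array.

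Epithelial cells are joined near their upper edge by the tight junction and, below it, by the adherens junction. CDH1 encodes E-cadherin, which binds its counterpart on the next cell and is anchored to actin through catenins. Claudins form the strands of the tight junction and set which ions pass between cells, occludin and the JAM family (F11R is JAM-A) lie in or beside these strands, and ZO-1, the product of TJP1, ties them to the cytoskeleton. In carcinoma cells CDH1 is a standard marker of the epithelial state, and the zinc finger and helix-loop-helix factors SNAI1, SNAI2, ZEB1, ZEB2 and TWIST1 are known as repressors of it that bind E-box sequences.

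The signals below are log2 intensities of a probe minus the 75th percentile of its array, so 0 is the 75th percentile and 1 unit is a factor of 2. Between 40.7% and 42.3% of the probes were well above background on each array, and no spot was saturated. The 75th percentile itself was 0.41 higher on KD1 and 0.10 higher on KD2 than on NC before scaling. The targeted gene followed the labels: PRMT1 stood at 6.03 on NC, 2.75 on KD1 and 1.48 on KD2, that is at 10.3% of NC in KD1 and at 4.26% in KD2. Of the colon epithelial markers, EPCAM, KRT8, KRT18 and KRT19 were well above background on all arrays and LGALS4 on both knockdown arrays, but KRT20, VIL1, CDH17 and CEACAM5 were above it on none. Of the markers of other cell types, 0 of 5 fibroblast genes were above background, the endothelial genes CDH5 and VWF were above it on all arrays while PECAM1, KDR and TEK were on none, and of 3 leukocyte genes only PTPRC was, on KD2. The 5 endothelial genes summed to -0.52 on NC, 0.18 on KD1 and -0.18 on KD2, the fibroblast genes to -2.07, -2.51 and -1.82, and the leukocyte genes to -2.57, -2.24 and -1.93, and the part of these signals in the results below was not tested.

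Which sequences carry these readings matters here, because several genes had a single probe and the OCLN probes disagreed. Shown are 30 of the 60 bases of 6 probes, 5′ to 3′, with the genome positions (hg19) that the files give for the whole probe. They are the probe behind the CDH1 reading at chr16:68869214-68869273, the probe of TJP1 at chr15:29992527-29992586 on the minus strand, the pair of CLDN12 probes at chr7:90044941-90045000 and chr7:90042478-90042537, and the pair of OCLN probes, which lie at chr5:68847386-68849429 and chr5:68849515-68849574.

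CDH1: aaatcaaccctgcaatcactttttggaatt

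TJP1: ctagtttgattaaattcttgcaaagtatcc

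CLDN12 brighter probe: agccatccaaggaaaataattatttacagt

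CLDN12 dimmer probe: agaagtttgagccagtcttttcatttgact

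OCLN brighter probe: tacaatagactgaagcaagtgaagggatct

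OCLN dimmer probe: tgtttgagaaattaagtatctgacatctct

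The brighter OCLN probe spans 2044 bases of genome and so crosses an exon junction, whereas the dimmer one is a single stretch starting just downstream of it. OCLN also has a transcribed pseudogene, OCLNP1, and how far its RNA adds to either probe was not tested. The single CLDN7 probe spans 165 bases of genome and crosses a junction as well. The probes of CLDN1, CLDN2 and CLDN3 each contain the hexamer AATAAA, the usual signal for cutting and polyadenylation, which lies near the end of a transcript. It is in capitals in the 30 bases shown here.

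CLDN1: gtaatgggaagaAATAAAagcctacgtgtt

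CLDN2: cagtaggtgatcAATAAAcacttgttgatt

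CLDN3: ttgatatttttcAATAAAagcctttcgttt

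The hexamer was read on the given strand only. It was present in 3 of the 14 junction gene probes (21.4%) and in 7.85% of all 58201 non-control probes.

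Of the 14 probes, 10 were well above background on all arrays, 1 on NC and KD1 alone (the dimmer CLDN12 probe) and 3 on no array. The 3 undetected probes were those of CLDN1 and CLDN2 and the dimmer probe of CLDN4, which the array assigns to a different transcript. So 8 of the 10 genes had a measured level, and none of the 8 entered through 1 array alone. CLDN1 and CLDN2, a sealing claudin and a claudin that forms a cation channel, were not measured. CLDN1 read -5.00 on NC, -5.30 on KD1 and -5.14 on KD2. CLDN2 read -4.04, -3.31 and -3.32. Both lie below the lowest detected signals of -2.69, -3.00 and -2.82 on NC, KD1 and KD2.

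**Figure D1:**
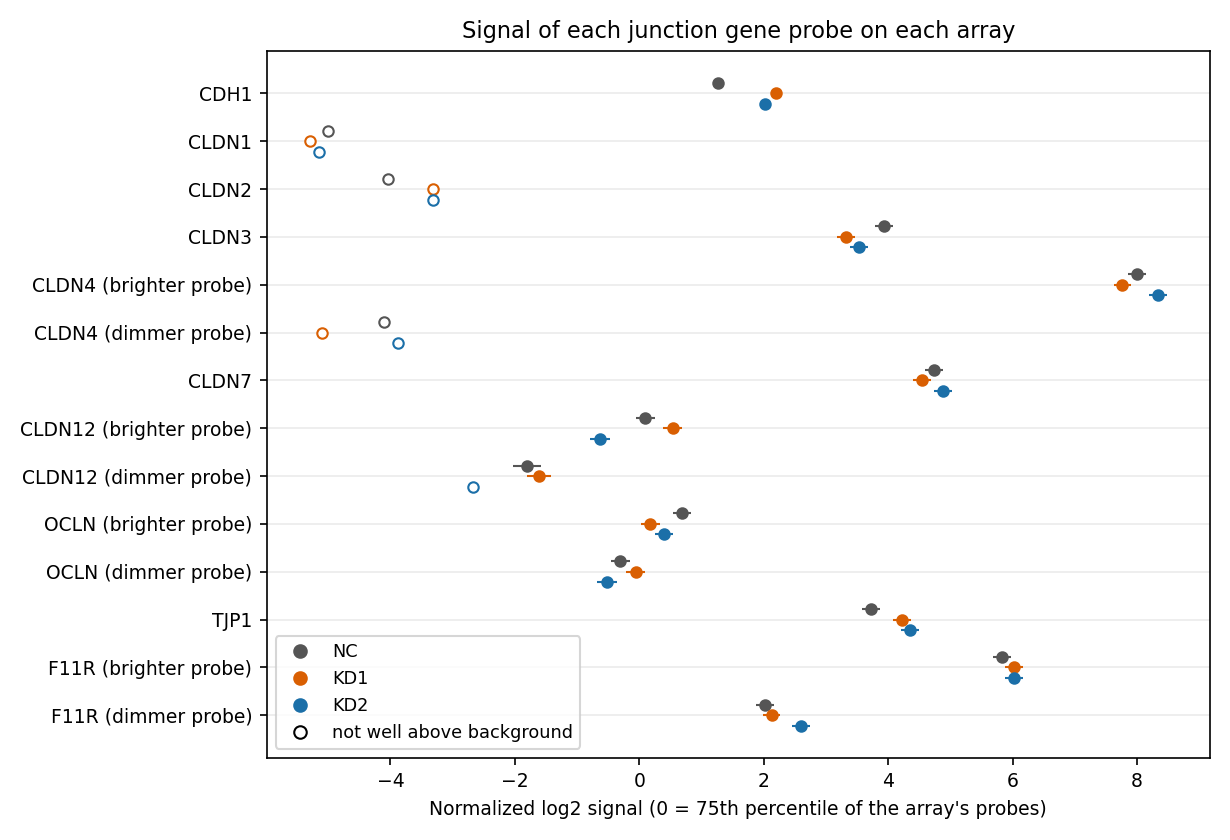
Normalized log2 signal (0 is the 75th percentile of the array) of the 14 junction gene probes on NC, KD1 and KD2. Filled points were well above background and open points were not. Bars are the SD over 10 spots for CDH1 and the scanner software's error for the other probes, which had 1 spot each. CDH1 and TJP1 lay higher on both knockdown arrays than on NC, CLDN3 lay lower on both, and the CLDN12 points of KD1 and KD2 fell on opposite sides of NC.

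Of the 8 junction genes measured, E-cadherin had the largest increase in both knockdowns. The CDH1 probe is printed 10 times on each array, and these spots read from 1.14 to 1.34 on NC, from 2.08 to 2.31 on KD1 and from 1.92 to 2.10 on KD2. No NC spot reached the lowest spot of either knockdown, while the ranges of KD1 and KD2 overlapped. The mean was 1.26 ± 0.059 (SD over 10 spots) on NC, 2.20 ± 0.066 on KD1 and 2.02 ± 0.055 on KD2. CDH1 was thus 0.94 ± 0.089 higher in KD1 (1.92-fold) and 0.76 ± 0.080 higher in KD2 (1.70-fold), the error being that of the spots. Spots of an array share 1 RNA, so this error covers the printing and the scan, not the cells. In bulk RNA, more cells with CDH1 and more CDH1 per cell cannot be told apart. Among all genes measured in each comparison the change of CDH1 stood at the 95.1th percentile in KD1 and at the 94.4th in KD2. It was 0.18 ± 0.086 higher in KD1 than in KD2, which is less than the spread of the KD1 minus KD2 difference over the 17054 genes detected on every array (a robust SD of 0.38). CDH1 passed 1.5-fold in both knockdowns under all 13 alternatives that kept this threshold, but several of these could not alter it. Having 1 probe detected on all arrays, it is untouched by changes of filter, floor or averaging over probes. Its KD1 change ranged from 0.69 (adjustment for brightness and probe GC content) to 1.59. In KD2 the range was from 0.61 (scaling to the median probe) to 1.06. With the scaling used here it did not reach 2-fold in either.

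**Figure D2:**
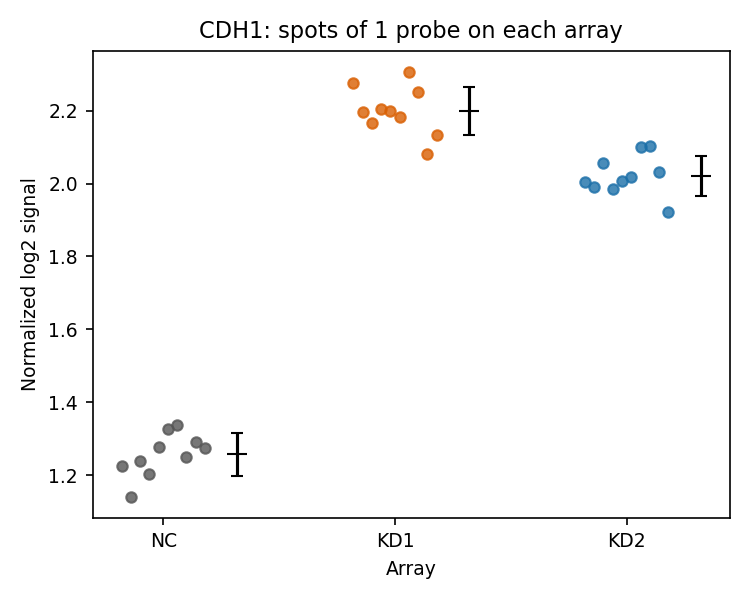
Normalized log2 signal of the 10 spots of the CDH1 probe on each array. The black bar to the right of each group is the mean with its SD over spots. The NC spots lie between 1.14 and 1.34, below every spot of KD1 and KD2.

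The claudins divided by gene and by knockdown. CLDN3, an abundant intestinal sealing claudin, read 3.93 on NC, 3.31 on KD1 and 3.53 on KD2. Both knockdown arrays were below NC, with differences of -0.61 ± 0.20 in KD1 (a ratio of 0.655) and -0.40 ± 0.20 in KD2, and only the first passed 1.5-fold, by a margin far smaller than its error. In KD1 it passed under 8 of 13 alternatives. CLDN4, another sealing claudin, read 7.997 on NC, 7.76 on KD1 and 8.33 on KD2 with its brighter probe. CLDN7, which is also found along the lateral membrane outside the tight junction, read 4.74, 4.54 and 4.88 on these arrays. For both genes NC lay between the knockdowns: CLDN4 differed from NC by -0.23 in KD1 and by 0.34 in KD2, CLDN7 by -0.19 and 0.14, and none of these differences passed 1.5-fold. Each had an error of 0.20, larger than both CLDN7 differences. The KD1 sign turned under 2 of 13 alternatives for CLDN4 and for CLDN7, and the KD2 sign of CLDN7 under 1.

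CLDN12, a claudin that lacks the PDZ-binding end found on most of the family, was the junction gene that differed most between the knockdowns. Its brighter probe read 0.10 on NC, 0.53 on KD1 and -0.63 on KD2, so that KD1 lay above NC and KD2 below it. The difference from NC was 0.44 ± 0.21 in KD1 and -0.73 ± 0.22 in KD2 (a ratio of 0.604), of which only the latter passed 1.5-fold, as it did under 11 of 13 alternatives. KD1 exceeded KD2 by 1.16 ± 0.22, or 2.24-fold, at the 98.4th percentile of all genes. The dimmer probe, 60 bases elsewhere in the gene, read -1.81 on NC and -1.61 on KD1 and was not well above background on KD2 (-2.67). It gave a difference of 0.20 ± 0.30 in KD1 and of -0.86 ± 0.40 in KD2 (a ratio of 0.552). With this probe KD1 exceeded KD2 by 1.05 ± 0.38, or 2.08-fold. Its KD2 signal was used as read, since it lay above the lowest detected signal of that array. Both CLDN12 probes had the order KD1, NC, KD2 from high to low, but the KD1 minus NC difference of the dimmer probe was smaller than its error. The KD1 minus KD2 difference of the brighter probe passed 1.5-fold under all 13 alternatives, from 0.66 to 1.52.

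For occludin the probes did not have the same order. The brighter OCLN probe read 0.69 on NC, 0.17 on KD1 and 0.39 on KD2, with NC highest, and its differences from NC were -0.51 ± 0.21 in KD1 and -0.30 ± 0.21 in KD2. The dimmer probe read -0.30 on NC, -0.06 on KD1 and -0.52 on KD2, with KD1 highest, and differed from NC by 0.25 ± 0.22 and -0.22 ± 0.22. In KD1 the probes therefore had opposite signs, and in KD2 both were below NC. No OCLN difference passed 1.5-fold.

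The scaffold gene TJP1 read 3.73 on NC, 4.22 on KD1 and 4.34 on KD2, higher on both knockdown arrays. It was 0.49 ± 0.20 above NC in KD1 and 0.62 ± 0.20 above NC in KD2 (1.53-fold), and only KD2 passed the threshold. The KD2 value stood at the 91.2th percentile of all genes and stayed past 1.5-fold under 12 of 13 alternatives, the exception being scaling to the median probe (0.46). For F11R the brighter probe read 5.83, 6.02 and 6.02 and the dimmer probe 2.02, 2.12 and 2.59 on NC, KD1 and KD2. Both F11R probes were above NC in both knockdowns, by 0.19 and 0.11 in KD1 and by 0.19 and 0.58 in KD2. Each difference had an error of 0.20, which only the dimmer probe in KD2 exceeded, and none of the values passed 1.5-fold.

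**Figure D3:**
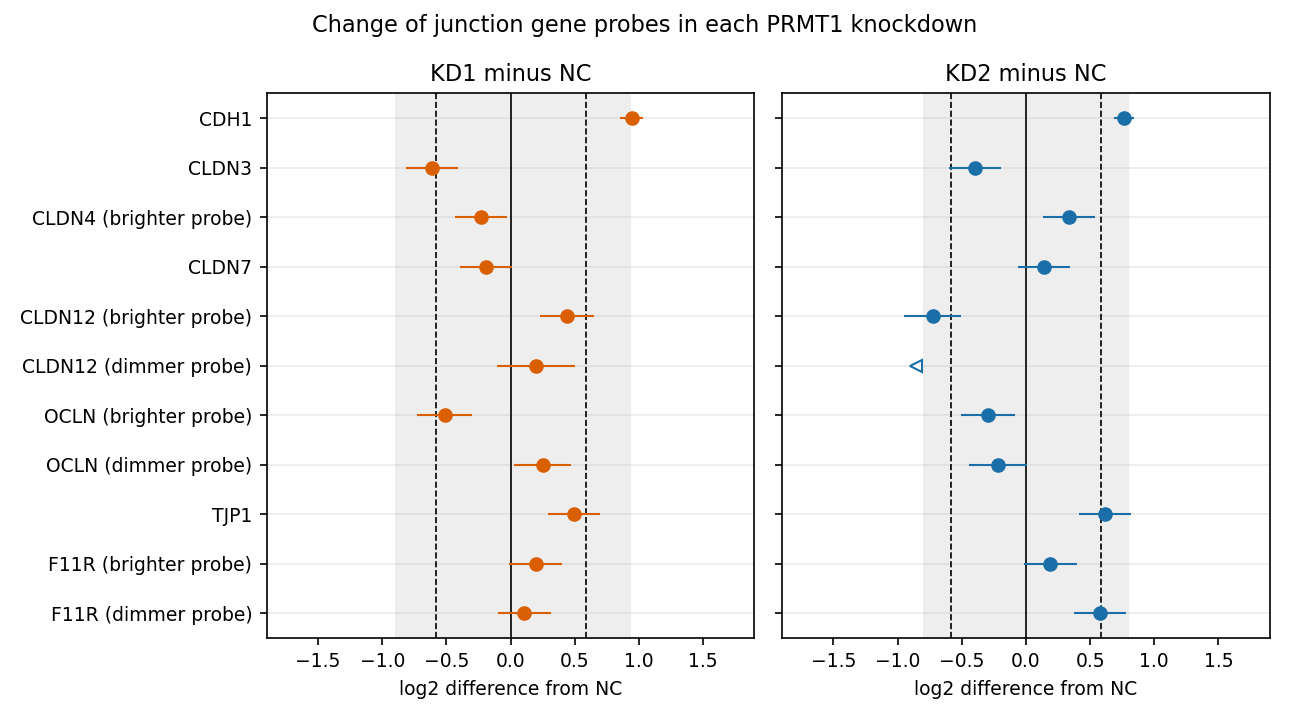
Log2 difference from NC of the 11 junction gene probes measured, in KD1 and in KD2. Bars are the spot error of the difference. The open triangle, drawn without a bar, is the dimmer CLDN12 probe, which was not well above background on KD2. Dashed lines mark 1.5-fold. The grey band holds the middle of all genes measured (5th to 95th percentile, from -0.90 to 0.93 in KD1 and from -0.79 to 0.80 in KD2). CDH1 lies to the right of the dashed line in both panels and at the edge of the grey band in both.

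Counted together, by the brightest probe of each gene, 1 of the 8 measured junction genes was past 1.5-fold lower in KD1 (CLDN3) and 1 higher (CDH1). Over all genes measured in KD1, 14% were lower and 12.3% higher by this threshold. In KD2, 1 of 8 was lower (CLDN12) and 2 were higher (CDH1 and TJP1), beside 10.5% lower and 9.6% higher of all genes. Between the knockdowns, 1 of 8 was higher in KD1 (CLDN12) and none was lower, beside 8.94% and 9.66% of all genes. With 8 genes each count of 1 is near the background, and the count of 2 rests on TJP1, which was just past the threshold. The median change of the 8 genes was 0.00 in KD1 and 0.17 in KD2, against -0.07 and -0.05 over all genes. CDH1 was the only junction gene past 1.5-fold in 1 direction in both knockdowns, where 4.84% of the genes measured in both were higher and 5.62% lower. Both comparisons use the same NC array, so an error of that array enters both.

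The other genes of these junctions were taken from lists of 74 genes, of which 73 were on the array under the listed or an older name and 48 were above background on all arrays. In KD1, 3 of 52 measured were past 1.5-fold lower and 5 higher, with a median change of 0.03. In KD2, 1 of 50 was lower and 3 were higher, with a median of 0.06. In both directions and both knockdowns these counts are smaller shares than those of all genes given above. Past 1.5-fold in KD1 and KD2 alike were 3 of the 49 genes measured in both, 2 higher and 1 lower. Of all genes measured in both, 4.84% were higher and 5.62% lower, so neither count is a larger share than that of all genes. MPP5 (PALS1), a scaffold of the Crumbs polarity complex, was higher by 0.63 in KD1 and 0.71 in KD2. PERP, a tetraspan membrane protein needed for desmosome assembly, was higher by 1.01 and 0.61. MPP5 passed 1.5-fold under 11 of 13 alternatives in KD1 and 12 in KD2, and PERP under all 13 in KD1 and 11 in KD2. PARD6A, an adaptor of the PAR polarity complex, was lower, at -0.76 and -1.42. Normexp background correction uses a model of signal plus noise in place of the scanner software's correction. With it PARD6A stood at -0.41 and -0.58, past 1.5-fold in neither. The related genes PARD6B and PARD6G went the other way, higher in KD1 by 1.27 and 0.64. In KD2 they stood at 0.38 and 0.22, within 1.5-fold.

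By junction type, no list moved as a whole. All 13 adherens junction genes were above background on every array, among them CTNNA1, CTNNB1, CTNND1 and JUP, the catenin partners of E-cadherin. None of the 13 passed 1.5-fold in KD1, and 1 did in KD2, where MLLT4 (afadin, a nectin-binding scaffold) was higher by 0.67. The catenins CTNNA1, CTNNB1, CTNND1 and JUP differed from NC by 0.54, 0.23, 0.20 and 0.11 in KD1 and by 0.19, 0.14, 0.02 and 0.35 in KD2, all within 1.5-fold. Of the 17 other claudins on the array, 11 were above background on no array, and of the 6 measured in KD1 only CLDN19 passed the threshold, at -0.60. Of 10 other tight junction membrane proteins, 8 were measured in KD1, of which 1 was lower (CXADR, -0.68), and 7 in KD2, of which none passed. The tight junction scaffold and polarity list had 1 of 17 lower and 3 higher in KD1 (MPP5, PARD6B and PARD6G) and 1 of 16 in each direction in KD2. The desmosome list had 2 of 8 higher in KD1 (PERP and PKP2) and 1 of 9 higher in KD2, and none lower. Over all genes, 12.3% were higher and 14% lower in KD1 and 9.6% and 10.5% in KD2, and with 5 to 17 genes a list these counts set no list apart.

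**Figure D4:**
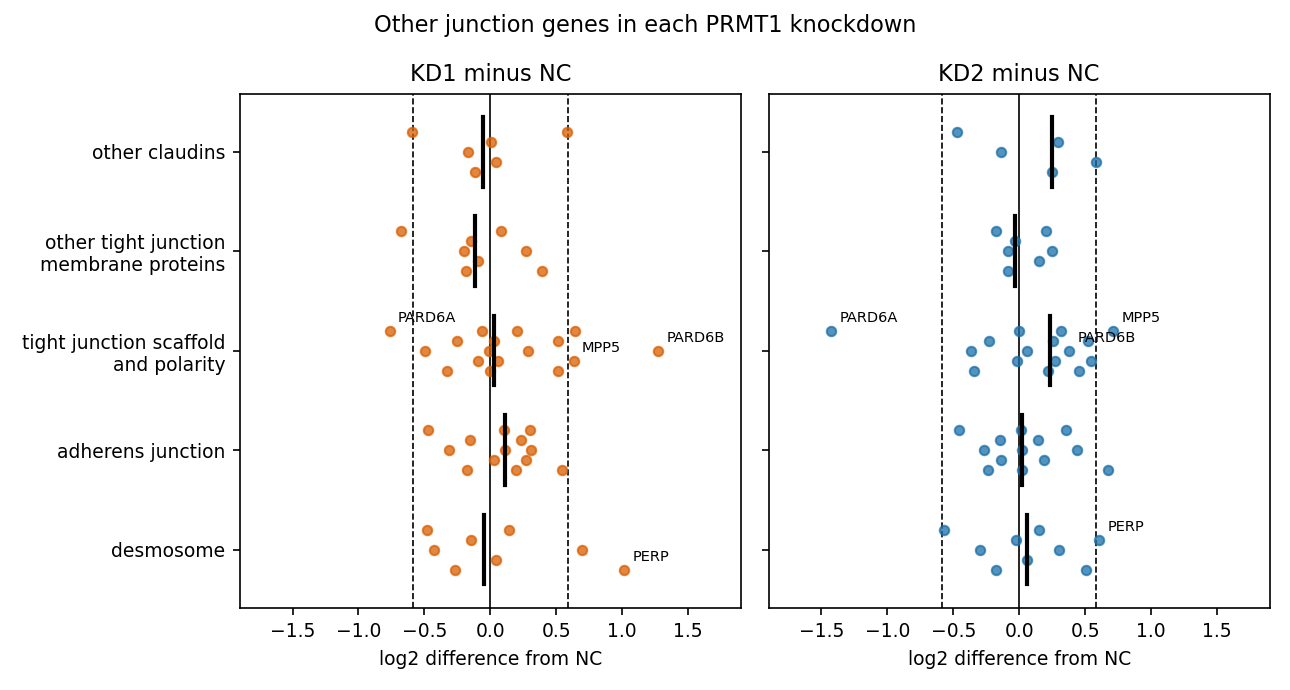
Log2 difference from NC of the other junction genes measured in KD1 and KD2, 1 point a gene, by list. Black ticks are list medians and dashed lines mark 1.5-fold. Most points lie between the dashed lines, and MPP5, PERP and PARD6A lie outside them on the same side in both panels.

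The repressors of CDH1 were read next, since CDH1 was higher in both knockdowns. SNAI2 (Slug) read 0.14 on NC, 1.87 on KD1 and 1.14 on KD2, higher by 1.72 in KD1 and by 1.00 in KD2, and was the only repressor past 1.5-fold the same way in both. SNAI1 (Snail) was within 1.5-fold in KD1 (0.14) and higher in KD2 (0.81). ZEB1 was higher by 0.69 in KD1 and stood at 0.51 in KD2. Its KD1 value was within 1.5-fold when its 2 probes were averaged and with the adjustment for brightness and probe GC content (0.44). TWIST1, at -1.59 on NC, was not well above background on KD1, where its difference from NC was -1.41 or lower, and stood at -0.56 in KD2. With normexp background correction TWIST1 stood at -0.56 and -0.13. TCF3 differed by 0.33 and 0.24, and KLF8 was above background on KD2 alone, where its difference from NC was 0.56 or more, a bound just under 1.5-fold, so it was not counted as higher. ZEB2, TWIST2 and TCF4 were above background on no array. CDH1 and its repressor SNAI2 were therefore higher together on both knockdown arrays. In all, 2 of 5 measured repressors were higher and 1 lower in KD1, and 2 of 6 were higher and none lower in KD2, beside 12.3% higher and 14% lower of all genes in KD1 and 9.6% and 10.5% in KD2.

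Among 14 regulators known to promote epithelial transcription or splicing, 13 were measured, of which 3 were past 1.5-fold higher in both knockdowns, beside 4.84% of all genes measured in both. KLF5, a zinc finger factor of the intestinal crypt, was higher by 1.68 in KD1 and 1.31 in KD2. GRHL1 and GRHL3, grainyhead-like factors that act on junction genes in other epithelia, were higher by 1.41 and 1.29 and by 0.79 and 1.08, although GRHL1 in KD1 stood at 0.42 when its 2 probes were averaged, and GRHL3 at 0.37 and 0.56, within 1.5-fold, with normexp background correction. ELF3 was also higher in KD2 (0.61) and stood at -0.26 in KD1. In KD2 it was within 1.5-fold with normexp and with scaling to the median probe (0.46). OVOL2, a repressor of mesenchymal genes, was lower in KD1 (-0.74) and stood at -0.49 in KD2. GRHL2 (0.13 and -0.05), OVOL1 (0.14 and 0.23), ESRP1 (0.32 and 0.28), ESRP2 (0.51 and 0.40), KLF4 (-0.23 and -0.04), CDX1 (-0.35 and -0.11), CDX2 (0.29 and 0.27) and FOXA1 (0.21 and 0.03) were within 1.5-fold in KD1 and KD2.

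Mesenchymal markers had no common direction. Of 12 on the array, CDH2, FN1, SPARC, COL1A2, COL3A1 and MMP2 were above background on no array. S100A4 was lower in both, at -1.02 in KD1 and -0.78 in KD2, and CDH11, above background on NC alone, was at -0.77 or lower and at -0.60 or lower (-0.47 and -0.31 with normexp, within 1.5-fold). ACTA2 was higher in KD1 (0.79) and stood at 0.34 in KD2. COL1A1 was higher in KD2 (0.62) and stood at 0.26 in KD1, and VIM differed by 0.03 and 0.33. The KD2 value of COL1A1 passed 1.5-fold under 10 of 13 alternatives, and was lowest with scaling to the median probe (0.47). Of the epithelial markers, KRT8 was lower in KD1 (-0.89) and stood at -0.39 in KD2. The KD1 value of KRT8 passed 1.5-fold under 9 of 13 alternatives, and not when its 3 probes were averaged. EPCAM (0.27 and 0.00), KRT18 (-0.54 and -0.56), KRT19 (-0.32 and -0.20) and LGALS4 (0.14 and 0.18) stayed within 1.5-fold.

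E-boxes of the form CAGGTG, or CACCTG on the other strand, are the sites through which the SNAI and ZEB factors are known to bind. The RefSeq promoter table (GRCh38.p14) matched 8 of the 10 junction genes with 14 start sites, CDH1 and F11R being without an entry. Within 250 bases before the start, 4 of the 14 starts had such an E-box (28.6%), compared with 17.5% of all 35116 starts. OCLN had 1 before each of its 2 starts and TJP1 had 1 before 1 of its 4. A start of CLDN7 had 4, a number reached by 0.122% of all starts. The CLDN7 stretch at chr17:7262479-7262728 and the TJP1 stretch at chr15:29969050-29969299 (both minus strand) are shown with the E-boxes in capitals, CLDN7 for its number and TJP1 because it was higher in KD2. A match describes letters and is not evidence of binding.

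CLDN7: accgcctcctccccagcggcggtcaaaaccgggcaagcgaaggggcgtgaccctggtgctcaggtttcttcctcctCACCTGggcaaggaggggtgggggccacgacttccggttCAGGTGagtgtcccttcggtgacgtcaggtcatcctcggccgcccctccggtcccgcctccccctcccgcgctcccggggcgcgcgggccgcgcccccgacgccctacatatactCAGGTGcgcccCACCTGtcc

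TJP1: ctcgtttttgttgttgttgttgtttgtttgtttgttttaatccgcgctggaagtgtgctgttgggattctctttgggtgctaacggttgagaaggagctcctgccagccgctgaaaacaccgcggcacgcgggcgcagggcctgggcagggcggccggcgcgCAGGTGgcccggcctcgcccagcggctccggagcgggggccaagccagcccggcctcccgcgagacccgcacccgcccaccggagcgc

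Genes whose pair of changes lay near that of CDH1, among 12569 genes with a RefSeq symbol and signal above background on all arrays, included the nearest pair, TM9SF3 (0.94 in KD1 and 0.77 in KD2) and ZDHHC7 (0.93 and 0.75). Within a distance of 0.1 on the log2 scale there were 51 such genes, over 2 comparisons that share the NC array, so that this pair of values did not set CDH1 apart.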

How the data were processed

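For every array the deposited scanner table gives a fluorescence intensity per spot, background-corrected but not scaled between arrays by Agilent Feature Extraction 10.7.1.1 (per the submitters' processing notes). The deposited table of probe means holds the same intensity, unscaled. The 3 arrays shared 1 slide and 1 scan.

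Control spots and spots marked as outliers were left out, which removed 130 of 58201 probes. Spots of a probe were averaged as log2 values, and the 75th percentile of each array was subtracted. A gene was its brightest probe, counted where well above background on at least 1 array compared. On the other array the lowest detected signal stood in for a lower value, so such a change is a bound. The threshold was 1.5-fold. Errors are the SD between spots (CDH1) or the extraction software's error, combined for a difference. Python 3.11.15, pandas 2.3.3 and limma 3.58.1 (normexp alternative) were used. The counting of probes was tested on simulated arrays built from NC with 2-fold changes. That simulation did not cover bounds, the choice of the brightest probe or changes near 1.5-fold.

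The genes and lists (other claudins, other tight junction membrane proteins, scaffold and polarity, adherens junction, desmosome, CDH1 repressors, epithelial regulators, mesenchymal, colon epithelial, fibroblast, endothelial and leukocyte markers) were chosen with earlier results of these data known. Named were every junction gene probe, PRMT1, listed genes past 1.5-fold alike in KD1 and KD2, detected repressors and markers, and the genes nearest to CDH1. CLDN19, CXADR, PKP2, MLLT4, PARD6B, PARD6G, the catenins and the epithelial regulators past or within the threshold were named after their values were seen. CLDN34, CD68 and LYZ were not analysed here. A few genes that this rule names are not reported here. Arrays: their number limits the precision.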

Additional observations from a re-analysis of the deposited data

Results flagged for a closer look

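CLDN12 stood above NC in KD1 (0.44) and below it in KD2 (-0.73), with KD1 higher than KD2 by 1.16 on the log2 scale. The dimmer CLDN12 probe had the same order of arrays, but with a KD1 minus NC difference (0.20 ± 0.30) smaller than its error. ELF3, an epithelial transcription factor, went the other way, at -0.26 in KD1 and 0.61 in KD2, with KD1 minus KD2 at -0.87. The KD1 sign of ELF3 did not hold in 3 of 13 alternatives, reaching 0.38 with the spike-in scaling. Its KD1 minus KD2 difference passed 1.5-fold under 11 of 13, the spike-in (-0.52) and unscaled settings being the exceptions. Both were singled out because KD1 and KD2 had opposite signs against NC and were more than 1.5-fold apart. With 1 array a group neither difference was tested, and PRMT1 itself was lower in KD2 than in KD1 by 1.27, and its part in these values was not tested.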

How the results depend on the processing

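The direction of CDH1 and its side of 1.5-fold held in both knockdowns under all 13 alternatives that kept this threshold. Alternatives that changed only the filter, the floor or the averaging over probes left CDH1 as it was by construction, so they are no check on it. No paired analysis was possible because each group had 1 array. Settings that moved counts of calls by more than 1.5 times were as follows, junction genes first and the other junction genes second, with the cause not tested. In KD1, junction genes counted as lower went from 1 to 0 with normexp, median, spike-in and unscaled settings and at 2-fold, and those higher went from 1 to 2 with normexp, the median and no filter, to 4 with spike-in and unscaled settings and to 0 at 2-fold. In KD2, lower went from 1 to 0 with normexp, spike-in and 2-fold and to 2 with every probe counted, and higher from 2 to 1 with the median and 0 at 2-fold. Between the knockdowns, lower went from 0 to 1 with the percentile of detected probes and with the brightness and GC adjustment, and higher from 1 to 2 with every probe counted. Of the other junction genes in KD1, 3 lower became 0 with normexp, spike-in, unscaled and 2-fold settings, 1 with the median and 5 with every probe, and 5 higher became 9 with the median and with no filter, 31 with spike-in, 18 unscaled, 11 with every probe, 2 at 2-fold and 3 with the brightness and GC adjustment. In KD2, 1 lower became 0 with normexp, 4 with the median, and 2 with no filter, the mean of probes, every probe and the brightness and GC adjustment, and 3 higher became 6 with quantile scaling, 0 with the median and at 2-fold, 5 with the percentile of detected probes and with the brightness and GC adjustment, 13 with spike-in, 7 unscaled and 10 with no filter and with every probe. The spike-in scaling moved the median of all genes to 0.58 in KD1 and 0.24 in KD2, and the unscaled table to 0.35 and 0.05. There the median change of the junction genes in KD1 was 0.65 and 0.41 and that of the other junction genes 0.68 and 0.44, and CLDN3 in KD1 turned to 0.036 with the spike-in scaling, below the median gene. The number of junction gene probes higher on both knockdown arrays went from 4 to 7 with it. The median scaling put all genes at 0.04 in KD1, -0.20 in KD2 and 0.26 between the knockdowns, the percentile of detected probes at -0.12, 0.00 and -0.11, and no filter at -0.23, -0.14 and -0.10. The brightness and GC adjustment and a percentile of linear means were chosen after seeing the data. CLDN1 and CLDN2 were below the detection limit, so no change of theirs could be read.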
